A study of Mus musculus with 6 samples.

Results

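The genes described here encode RGS proteins, the regulators of G-protein signalling: Rgs1, Rgs2, Rgs3, Rgs4, Rgs5, Rgs10, Rgs16, Rgs17 and Rgs19. They are 9 of 28100 gene names on the array, found as the non-control probes that carry one of these names in the scanner files, 17 probes of 41174. The measurement followed mRNA levels in fibroblasts from the dermis of C57BL/6 mice, the connective tissue layer of skin, that were given interleukin-1 (IL-1) at 20 ng/ml for 1 h, 2 h or 4 h, and in the same kind of cells left untreated (0 h). All were grown in serum-containing medium. Each of the 6 two-colour Agilent arrays held RNA of treated cells of 1 time point in one dye and RNA of untreated cells in the other. Each time point was hybridised on 2 arrays with exchanged dyes, and these count as 1 sample. How many mice or cultures stand behind each RNA is not stated in the labels, so p-values do not measure the spread between them. They rest on the spread of the 3 time points, with each probe's variance drawn by limma towards that of all tested probes. With RNA of whole cultures, fewer cells of a type and less RNA per cell cannot be told apart.

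RGS proteins bind the alpha subunit of heterotrimeric G proteins in its GTP-bound form and speed the hydrolysis of GTP, so that signals from G-protein-coupled receptors end sooner. Many RGS mRNAs are themselves induced or lost quickly after a stimulus, and the encoded proteins are often short-lived, which makes them fast feedback elements. Rgs1, Rgs2, Rgs3, Rgs4, Rgs5 and Rgs16 belong to the R4 family, most of whose proteins are small and built mainly of the RGS domain. Rgs10 belongs to the R12 family, and Rgs17 and Rgs19 to the RZ family. IL-1 itself signals through a receptor that is not coupled to G proteins and activates NF-kB and MAP kinases.

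The promoters of the genes with the strongest changes are shown because Rgs16 stood higher after IL-1 while Rgs2 and Rgs4 stood lower. Each line gives the 250 bases before the start of the gene from RefSeq on GRCm38.p6, 5′ to 3′ on the gene's strand, at chr1:153740103-153740352 (+ strand) for Rgs16, chr1:144004150-144004399 (- strand) for Rgs2 and chr1:169747643-169747892 (- strand) for Rgs4. Capitals mark matches to the letters searched.
Rgs16: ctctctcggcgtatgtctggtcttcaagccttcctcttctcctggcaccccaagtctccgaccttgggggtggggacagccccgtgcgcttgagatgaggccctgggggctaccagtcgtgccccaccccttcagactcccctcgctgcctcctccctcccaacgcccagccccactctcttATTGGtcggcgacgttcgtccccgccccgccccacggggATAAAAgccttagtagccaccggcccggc
Rgs2: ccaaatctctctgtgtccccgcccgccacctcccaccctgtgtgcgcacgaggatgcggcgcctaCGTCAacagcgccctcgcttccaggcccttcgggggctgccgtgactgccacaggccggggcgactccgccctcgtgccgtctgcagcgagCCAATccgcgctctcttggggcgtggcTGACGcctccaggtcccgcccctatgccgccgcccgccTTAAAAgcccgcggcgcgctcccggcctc
Rgs4: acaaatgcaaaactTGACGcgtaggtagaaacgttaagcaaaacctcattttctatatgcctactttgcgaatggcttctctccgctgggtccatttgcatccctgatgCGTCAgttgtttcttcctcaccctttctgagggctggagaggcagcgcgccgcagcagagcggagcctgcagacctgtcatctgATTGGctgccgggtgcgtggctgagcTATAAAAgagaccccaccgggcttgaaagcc
All 3 hold a CCAAT box, CCAAT on either strand, which 33.8% of 32851 RefSeq promoters hold in the same window. Each also holds an A/T-rich stretch that begins 29 to 31 bases before the start. It reads ATAAAA in Rgs16 (10.2% of promoters hold it anywhere in the window, read on the gene's strand) and TTAAAA in Rgs2 (11% of promoters). In Rgs4 it is read as ATAAAA and, overlapping it, TATAAA (7.59% of promoters). Rgs2 and Rgs4 each have 2 copies of TGACG, the core of the cAMP response element, counted on both strands (17.8% of promoters have at least 1), and Rgs16 has none in this window. The full element TGACGTCA (1.55% of promoters), the AP-1 site TGANTCA (6.75%), the NF-kB motif (7.25%) and the serum response element (1.47%), all searched on both strands, had no match in these 3 windows. Of the other members, 5 have a promoter in the table, and Rgs17 alone among them matched the AP-1 letters. The matches describe letters only.

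The values below are log2 ratios of treated over untreated RNA, signed by the labelled dye of each RNA, after background correction with an offset and loess normalization. The ± of a single time point is the distance of either dye orientation from the mean of both. It is a technical error, with a median of 0.062 and a 95th percentile of 0.197 over all probes and times. A probe was measured if it was flagged well above background on both treated arrays of a time point or on all 6 untreated channels, and 30577 probes were tested. Of the 17 Rgs probes 16, from 8 genes, were measured, none of them saturated. Of these, 11 lay above the 99th percentile of the negative control spots in all channels. The untreated cells carried fibroblast RNA, with all 10 fibroblast marker genes above that percentile on all 6 arrays by at least 1 of their probes, including Col1a1, Pdgfra and Thy1. The same held for 1 of 5 endothelial markers, 4 of 7 mural cell markers, 2 of 6 keratinocyte markers and 6 of 9 leukocyte markers, while Pecam1, Kcnj8, Cdh1 and Itgam passed it on 0 untreated channels. The part of other cell types in the Rgs values was not tested. The NF-kB inhibitor gene Nfkbia, a standard IL-1 target, stood at 3.02, 2.65 and 1.87 at 1, 2 and 4 h.

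The mean response over the 3 times was tested against 0 with limma, adjusted over all tested probes. Of the 16 measured Rgs probes 5 rose and 2 fell. Over all probes 10.5% rose and 11.4% fell by the same test, so a call alone says little, and 4 of the 5 rises belong to 1 gene, Rgs3. The genes with a probe that rose were Rgs16 and Rgs3, and those with a probe that fell were Rgs2 and Rgs4. No probe of Rgs5, Rgs10, Rgs17 or Rgs19 passed. The median of the 16 probes was 0.014, against 0.0021 over all probes tested. In size the called probes other than the weakest Rgs3 probe (0.12) lay outside the 5th to 95th percentile of all probes, -0.16 to 0.16.

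**Figure D1:**
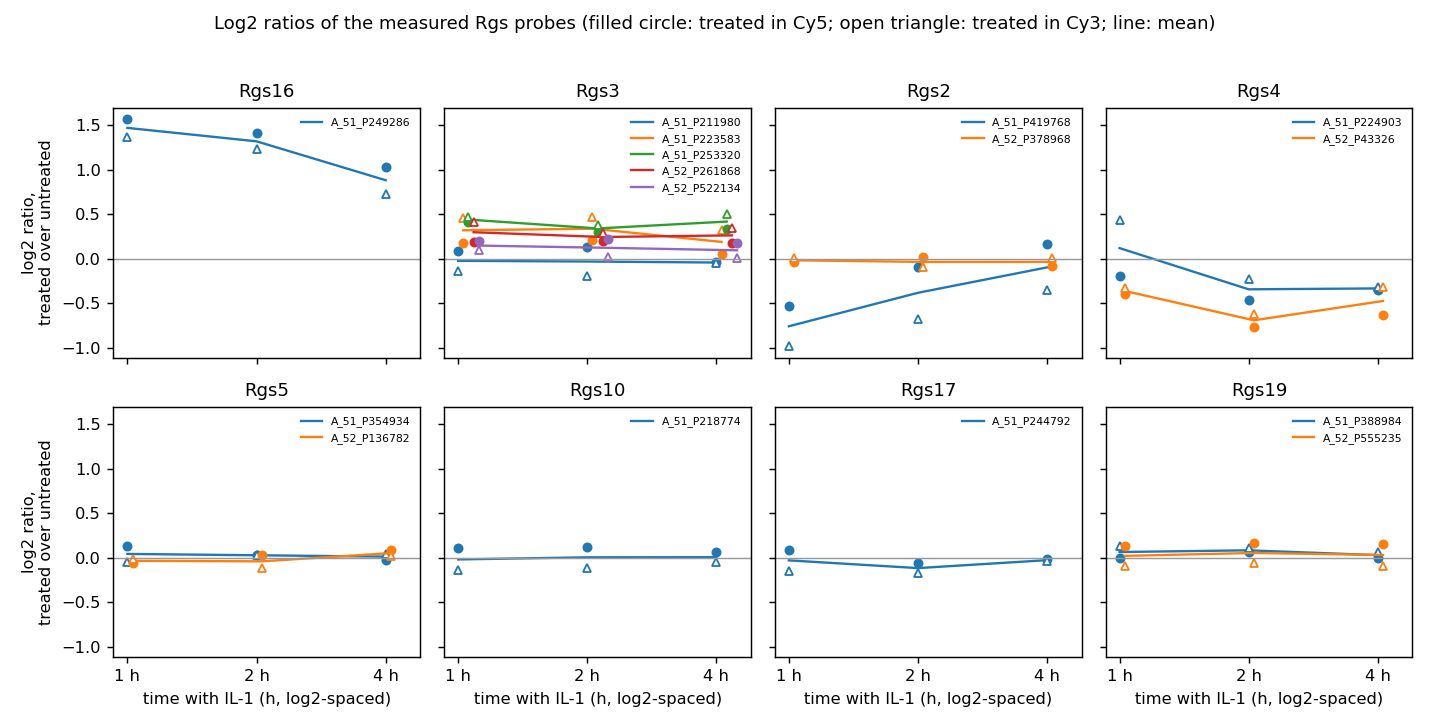
Log2 ratios of treated over untreated RNA for the 16 measured probes of 8 Rgs genes at 1, 2 and 4 h of IL-1; filled circles are arrays with the treated RNA in Cy5, open triangles those with it in Cy3, lines join the means, and colours tell the probes of a gene apart. Rgs16 lies between 0.73 and 1.57 on all arrays, the bright Rgs2 probe climbs from below 0 with time, and Rgs5, Rgs10, Rgs17 and Rgs19 stay between -0.17 and 0.16.

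Rgs16 was the member with the largest response. Its protein acts on alpha subunits of the Gi and Gq classes and restrains, among others, signals from chemokine receptors. At 1 h the processed signal of its single probe (A_51_P249286, NM_011267, chr1:153629751-153629810, + strand, in the scanner files' coordinates, whose build is not named) was 33804.5 and 30639.3 in treated RNA, against 11044.3 and 11458 in untreated RNA of the same arrays. At 2 h it was 28112.8 and 27913 in treated RNA, against 10288.3 and 11496.3 in untreated RNA. At 4 h it was 24878.3 and 18980.5 in treated RNA, against 11998.6 and 11054.7 in untreated RNA. Every treated signal lay above every untreated one, and the untreated signal varied by 5.14% (coefficient of variation over 6 arrays).

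On the log2 scale the 1 h arrays gave 1.57 and 1.37 for Rgs16, the 2 h arrays 1.41 and 1.23, and the 4 h arrays 1.03 and 0.73. Averaged over both arrays, these gave 1.47 ± 0.10, 1.32 ± 0.090 and 0.88 ± 0.15, or 2.77-, 2.50- and 1.84-fold. Rgs16 was thus at least 2-fold higher in both orientations at 1 h, as were 0.17% of all tested probes, and at 2 h (0.134%), but in only 1 of the 2 orientations at 4 h. With median centring it was not 2-fold higher in both orientations at either time, with means of 1.31 and 1.14. Its mean response was 1.22 ± 0.10 (SE, n = 3 times, limma adjusted p = 0.00136), positive on 6 of 6 arrays. The mean response passed its threshold under every processing tried, with a mean between 1.07 and 1.39.

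The Rgs16 ratio was highest at 1 h and lowest at 4 h. It was 0.54 lower at 4 h than at 1 h in one orientation and 0.64 lower in the other. A 2-fold excess of 1 h over 4 h in both orientations, which 0.0687% of all probes had, was reached by 0 Rgs probes. The slope was -0.29 ± 0.042 per doubling of time (SE, n = 3, limma adjusted p = 0.0493), and falling slopes passed for 0.242% of all probes. This call lies close to the threshold. It was lost with an offset of 16 (limma adjusted p = 0.48), with the scanner's processed signals (limma adjusted p = 0.533), with the trended robust variance (limma adjusted p = 0.55), without replicate 1 (limma adjusted p = 0.11) and without replicate 2 (limma adjusted p = 0.197), while the slope itself stayed between -0.32 and -0.27. With the offset of 16, the processed signals and the trended robust variance, 0 probes of the whole array had a slope that passed. Without replicate 1 falling slopes passed for 30 probes and without replicate 2 for 13, against 74 as reported.

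The genes whose ratios over the 6 arrays were closest to those of Rgs16, by root mean square difference, were Csf2 (0.163), which encodes a colony-stimulating factor, the adhesion molecule gene Vcam1 (0.168), the chemokine gene Cx3cl1 (0.255), the early response gene Ier3 (0.258) and Ccrn4l (0.270), the gene of nocturnin. Csf2 stood at 1.64, 1.23 and 0.70 at 1, 2 and 4 h and Vcam1 at 1.34, 1.47 and 1.04. The ratios come from the same arrays as those of Rgs16, and the likeness is a description.

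**Figure D2:**
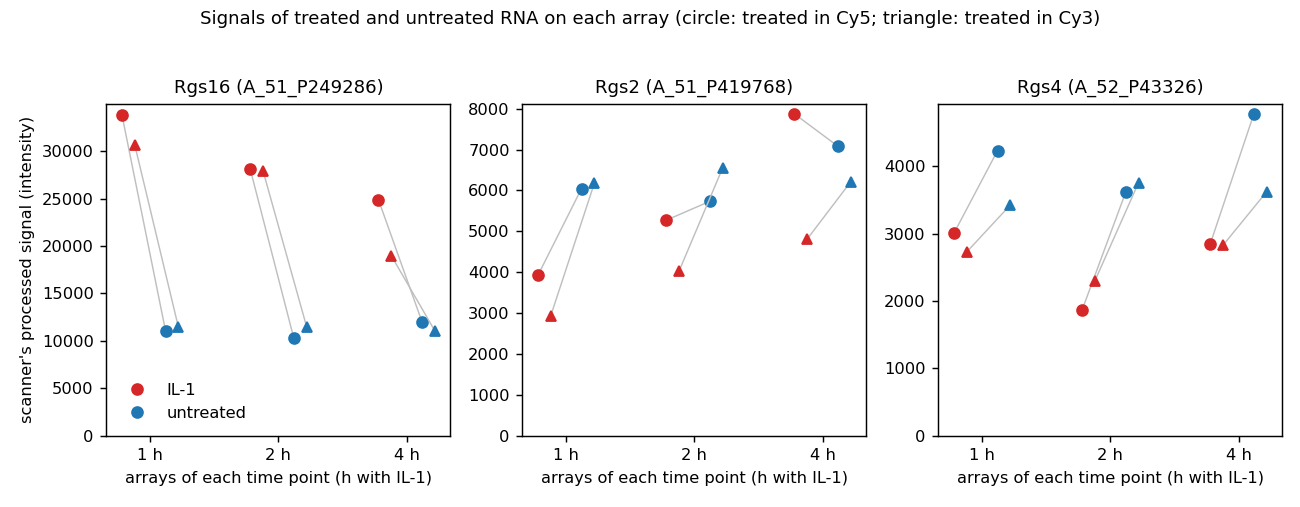
Scanner's processed signals (intensity, linear axis from 0) of the Rgs16 probe and of the brightest Rgs2 and Rgs4 probes in IL-1-treated (red) and untreated (blue) RNA on each array; grey lines join the channels of one array, circles have the treated RNA in Cy5 and triangles in Cy3. Treated and untreated signals are apart on every array for Rgs16 and Rgs4, whereas for Rgs2 at 4 h one array has more and the other less signal in treated RNA.

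Rgs2 encodes an RGS protein with a preference for the Gq class and is known in other cells as an early response gene. Its brighter probe (A_51_P419768, NM_009061, chr1:143833227-143833286, - strand) moved the other way from Rgs16. At 1 h its processed signal was 3924.23 and 2935.88 in treated RNA, against 6046.56 and 6177.57 in untreated RNA. At 2 h it was 5271.91 and 4024.23 in treated RNA, against 5734.43 and 6548.28 in untreated RNA. At 4 h it was 7873.63 and 4812.42 in treated RNA, against 7079.7 and 6215.29 in untreated RNA. Treated signals lay below untreated ones on 5 of the 6 arrays and above on the array of 4 h with treated RNA in Cy5.

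For Rgs2 the 1 h arrays gave log2 ratios of -0.53 and -0.98, the 2 h arrays -0.093 and -0.67, and the 4 h arrays 0.16 and -0.35. Their means were -0.76 ± 0.23, -0.38 ± 0.29 and -0.097 ± 0.26, which puts treated RNA at 59.1%, 76.7% and 93.5% of the untreated level. The deficit was thus largest at 1 h. No Rgs probe was at least 2-fold lower in both orientations at 1 h, a size that 0.00654% of all tested probes reached. The mean response was -0.41 ± 0.11 (SE, n = 3, limma adjusted p = 0.0429).

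The 2 dye orientations of this Rgs2 probe were further apart than those of most probes, by 0.45, 0.58 and 0.51 at 1, 2 and 4 h. With Cy5-treated arrays alone (without replicate 2) the mean response was -0.16 (limma adjusted p = 0.298), and with Cy3-treated arrays alone (without replicate 1) it was -0.67. The call of the mean was also lost with an offset of 16 (limma adjusted p = 0.0869), with the scanner's processed signals (limma adjusted p = 0.149) and without the 2 h sample (limma adjusted p = 0.147). Without the 1 h sample the mean was -0.24. The change over time was alike in both orientations, with the 1 h ratio 0.69 below that of 4 h in one and 0.63 below it in the other. The slope was 0.33 ± 0.030 per doubling of time (SE, n = 3, limma adjusted p = 0.0104), where rising slopes passed for 0.196% of all probes. The slope call was lost with an offset of 16 (limma adjusted p = 0.388), the scanner's processed signals (limma adjusted p = 0.533), the trended robust variance (limma adjusted p = 0.101) and without replicate 2 (limma adjusted p = 0.102), with slopes of 0.33 to 0.37. Over the whole array 0 slopes passed with the offset of 16, the processed signals and the trended robust variance. Without replicate 2 rising slopes passed for 8 probes, against 60 as reported.

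The second Rgs2 probe (A_52_P378968) has the same accession and lies further along the gene. It was dim, above the 99th percentile of negative controls in 3 of 6 treated and 3 of 6 untreated channels, and was well above background on 1 of 2 treated arrays at 2 h. Its log2 ratios ranged from -0.095 to 0.024 and its mean of -0.029 did not pass (limma adjusted p = 0.423). With the scanner's processed signals its mean was -0.31 (limma adjusted p = 0.0919), with 5 of 6 arrays below 0. The Rgs2 calls therefore rest on the brighter probe.

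Rgs4 encodes an RGS protein that acts on the Gi and Gq classes. Its brighter probe (A_52_P43326, NM_009062, chr1:169676595-169676654, - strand) had processed signals of 3004.23 and 2726.94 in treated RNA, against 4229.98 and 3424.79 in untreated RNA at 1 h. At 2 h they were 1867.85 and 2301.29 in treated RNA, against 3615.54 and 3755.97 in untreated RNA. At 4 h they were 2852.54 and 2830.7 in treated RNA, against 4780.18 and 3623.41 in untreated RNA. Every treated signal of this probe lay below every untreated one.

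For that probe the 1 h arrays gave log2 ratios of -0.39 and -0.33, the 2 h arrays -0.76 and -0.62, and the 4 h arrays -0.63 and -0.31. Treated RNA stood at 77.9%, 61.9% and 72.0% of the untreated level in the mean, lowest at 2 h. The mean response was -0.51 ± 0.059 (SE, n = 3, limma adjusted p = 0.00317) and negative on 6 of 6 arrays. With the scanner's processed signals the mean was -0.60 and missed the threshold (limma adjusted p = 0.0509). No slope was detected (-0.057, limma adjusted p = 0.831).

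The dimmer Rgs4 probe (A_51_P224903, same accession) gave log2 ratios of -0.20 and 0.44 on the 1 h arrays, -0.46 and -0.23 on the 2 h arrays, and -0.35 and -0.32 on the 4 h arrays. It was below 0 on 5 of 6 arrays, and the exception was the 1 h array with treated RNA in Cy3. Its mean of -0.19 did not pass (limma adjusted p = 0.198). Without the 1 h sample the mean was -0.34 (limma adjusted p = 0.00052), and without replicate 2 it was -0.33 (limma adjusted p = 0.00351). Without replicate 1 it was -0.036 (limma adjusted p = 0.853), without the 2 h sample -0.11 (limma adjusted p = 0.59) and without the 4 h sample -0.11 (limma adjusted p = 0.498). Both Rgs4 probes thus lay below 0 on all 4 arrays of 2 h and 4 h.

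Rgs3 encodes several proteins of different length that share the RGS domain at the carboxyl end. It had 5 probes, spread over 42383 bases of chromosome 4 between the first and the last start in the coordinates of the scanner files, for which no genome build is named. The first probe (A_51_P211980) carries the accession of transcript variant 1 (NM_019492) and the other 4 that of variant 2 (NM_134257), per the file's own annotation. Which variants each probe reads was not tested. In the order along the gene the mean responses were -0.032, 0.12, 0.27, 0.28 and 0.40.

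The last Rgs3 probe (A_51_P253320) gave log2 ratios of 0.41 and 0.47 on the 1 h arrays, 0.30 and 0.38 on the 2 h arrays, and 0.33 and 0.50 on the 4 h arrays. Its processed signal ranged from 1483.39 over a median of 1683.33 to 1876.42 in treated RNA, and from 968.361 over 1093.415 to 1438.18 in untreated RNA, so the channels did not overlap. The mean response was 0.40 ± 0.028 (SE, n = 3, limma adjusted p = 0.000911). The probes before it, A_51_P223583 (0.28 ± 0.034, limma adjusted p = 0.00367) and A_52_P261868 (0.27 ± 0.024, limma adjusted p = 0.00161), were also above 0 on 6 of 6 arrays. The size of A_51_P223583 differed between orientations, at 0.15 without replicate 2 and 0.42 without replicate 1. These 3 probes passed the threshold under all processings tried in which probes were kept apart. With the scanner's processed signals, which add no offset, their means were 0.56, 0.63 and 0.40, and the last probe was then not the highest. None of the 5 probes had a slope that passed, the lowest limma adjusted p being 0.573.

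The second Rgs3 probe (A_52_P522134) was above 0 on 6 of 6 arrays but small, at 0.12 ± 0.024 (SE, n = 3, limma adjusted p = 0.0156). Its mean was 0.0066 with median centring and 0.042 without replicate 1 (0.20 without replicate 2), and it lost its call with median centring and without replicate 1, as well as with the scanner's processed signals, without the 1 h sample and without the 2 h sample. The signal of this probe differed between the arrays of different times in both channels, with 3553.67 to 8000.41 in treated RNA and 3095.86 to 6827.88 in untreated RNA, and the arrays of 2 h were the highest in both.

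The first probe, filed under variant 1, had ratios from -0.19 to 0.13 and a mean of -0.032 that did not pass (limma adjusted p = 0.374). In the ratios with the offset of 50, all 4 variant 2 probes lay above it on 6 of 6 arrays. Ratios of processed signals broke this order on the 1 h and 2 h arrays with treated RNA in Cy5. There the first probe stood at 0.240 and 0.332. A_52_P522134 (0.215 and 0.229) and A_52_P261868 (0.233 and 0.287) lay below it, while A_51_P223583 (0.652 and 0.612) and A_51_P253320 (0.468 and 0.349) lay above. The offset compresses the ratios of dim probes. The first probe was dim, above the 99th percentile of negative controls in 3 of 6 treated and 4 of 6 untreated channels. With the scanner's processed signals its mean was -0.071, with median centring 0.0064, and without replicate 1 -0.13, where it passed (limma adjusted p = 0.0459). Without replicate 2 the sign was the opposite, at 0.062 (limma adjusted p = 0.251). The difference between probes was not tested.

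**Figure D3:**
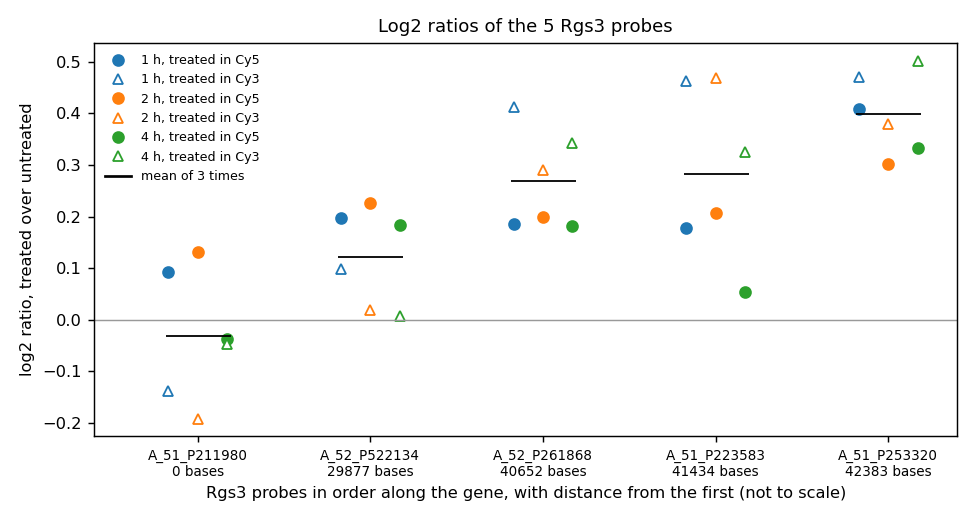
Log2 ratios of treated over untreated RNA on each of the 6 arrays for the 5 Rgs3 probes, in their order along the gene with the distance from the first in bases (spacing not to scale); bars are means over 1, 2 and 4 h. The first probe straddles 0 and the other 4 lie above 0 on all arrays.

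The remaining R4 members gave no change that passed. Rgs5, a widely used marker of pericytes, had 2 probes with ratios from -0.11 to 0.14 and means of 0.030 and -0.0059 (limma adjusted p = 0.419 and 0.914). Both were dim, above the 99th percentile of negative controls in 3 of 6 treated and in 3 and 2 of 6 untreated channels. The second Rgs5 probe was well above background on 1 of 2 treated arrays at 1 h and at 2 h. Rgs5 lies beside Rgs4 on chromosome 1, where the scanner files put its probes at 169627068 to 169628924 and those of Rgs4 at 169676595 to 169678050. Rgs1, best known from lymphocytes, was not well above background on any array in either channel, and no fold is given.

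Rgs10, Rgs17 and Rgs19 belong to other families. Rgs10, a short protein that acts on the Gi class, had ratios of 0.11, 0.12 and 0.067 with treated RNA in Cy5 and -0.14, -0.11 and -0.050 with treated RNA in Cy3. Its sign followed the dye, and the mean was -0.00086 (limma adjusted p = 0.984). It passed as higher without replicate 2 (0.098, limma adjusted p = 0.0414) and as lower with median centring (-0.12, limma adjusted p = 0.0205). Its processed signal lay between 3644.86 and 4727.3 in treated RNA, against 4037.28 to 4689.3 in untreated RNA, so the ranges overlapped.

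Rgs19, also known as GAIP and a regulator of the Gi class, had 2 bright probes. Their ratios ranged from -0.093 to 0.16, with means of 0.061 and 0.037 that did not pass (limma adjusted p = 0.127 and 0.314). The sign of the second followed the dye at every time. It passed without replicate 2 (0.15, limma adjusted p = 0.00845) and was -0.079 without replicate 1 (limma adjusted p = 0.102). Rgs17 had ratios from -0.17 to 0.086 and a mean of -0.056 (limma adjusted p = 0.212), and it was above the 99th percentile of negative controls in 3 of 6 treated and 5 of 6 untreated channels. Its probe is placed on the + strand of chromosome 10, whereas the gene's RefSeq promoter lies on the - strand. Which RNA the probe reads was not tested. For none of these genes does the missing call show that the level stayed the same.

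**Figure D4:**
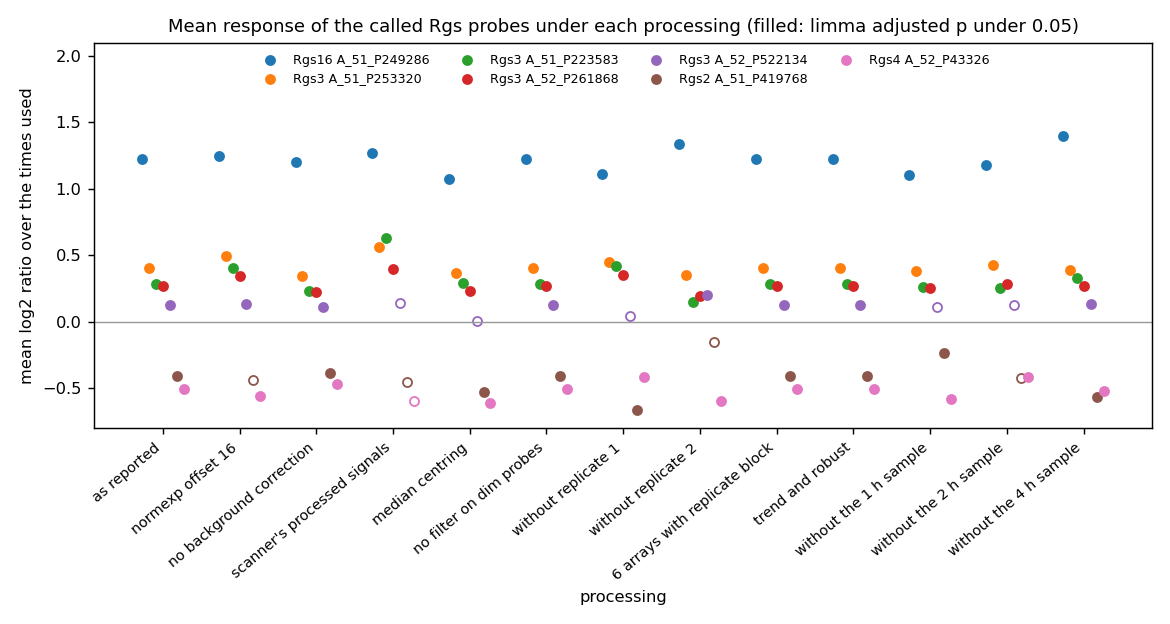
Mean log2 ratio of the 7 called Rgs probes under the reported processing and 12 alternatives; filled points have a limma adjusted p under 0.05 and open ones do not. Rgs16 stays between 1.07 and 1.39 throughout, the 3 later Rgs3 probes stay above 0, and Rgs2 is open in 4 of the alternatives.

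The other genes of G-protein signalling were grouped in 7 lists with 160 tested probes of 103 genes. Of these probes 22 (17 genes) rose and 10 (9 genes) fell in the mean response, against 10.5% and 11.4% of all probes, and the list median was 0.018. As shares of the 160 probes these are 13.8% and 6.25%. Counts under several other settings follow, with the share of all tested probes, which also moved. Without the 4 h sample 20 rose (12.5%, against 8.87% of all probes) and 13 fell (8.12%, against 10.6%). With the trended robust variance 26 rose (16.2%, against 12.4%) and 10 fell (6.25%, against 11.7%). With median centring 16 rose (10%, against 5.49% of all probes) and 30 fell (18.8%, against 24.4%). With dye orientation as a replicate block 31 rose (19.4%, against 14.3%) and 17 fell (10.6%, against 15.3%). Without the 2 h sample 8 rose (5%, against 3.03%) and 3 fell (1.88%, against 2.82%). Without replicate 1 the counts were 37 up (23.1%, against 14.8%) and 19 down (11.9%, against 19.3%). Without replicate 2 they were 33 up (20.6%, against 20.5%) and 29 down (18.1%, against 16.5%).

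The counts of single lists stand beside 10.5% up and 11.4% down over all tested probes. Among the other RGS genes, 1 of 8 tested probes rose and 0 fell (limma; no other tool was run), the 1 being Axin1 (0.17), a Wnt pathway scaffold with an RGS-like domain. Of the alpha subunits, the direct targets of RGS proteins, 4 of 30 probes rose, led by Gna13 (0.16), Gna12 (0.13) and Gna11 (0.12, or -0.018 with median centring), and 1, of Gnas (-0.14), fell. The list of beta and gamma subunits had 2 of 20 probes up, Gnb2 (0.23, or 0.079 with median centring) and Gnb4 (0.13, or 0.034), and 3 down, Gng10 (-0.29), Gng5 (-0.15) and Gng8 (-0.10). The receptor kinases and arrestins had 1 of 10 up, Adrbk1 (0.11), and 1 down, Arrdc3 (-0.13). Of the other regulators 1 of 13 probes rose, Pcp2 (0.29), and 4 fell, led by Gpsm2 (-0.24), Snx13 (-0.14) and Gpsm1 (-0.11). Of the effectors 1 of 28 rose, Pik3r5 (0.51, or 1.46 with the scanner's processed signals), a regulatory subunit of the phosphoinositide 3-kinase that beta and gamma subunits activate. Each value is that of a gene's largest called probe. Further probes without a call gave 0.016 for Gna13, 0.040 for Gna11 and -0.060 to 0.078 for Gnas. They gave 0.028 for Gnb4, -0.046 for Gng5, and 0.067 and -0.036 for Adrbk1. For Pcp2 they gave 0.080, for Gpsm2 -0.10 and for Pik3r5 0.067.

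Receptors, the list with the most probes, showed the most rises, with 12 of 51 probes (7 genes) up and 1 down. Over all probes 10.5% rose and 11.4% fell. The nucleotide receptor gene P2ry2 stood at 0.36, 0.78 and 1.00 at 1, 2 and 4 h, and its mean of 0.71 passed (limma adjusted p = 0.00688), as did that of its second probe (0.32). The adenosine receptor gene Adora2b averaged 0.56 and the prostaglandin receptor gene Ptger2 0.51 (1.72 with the scanner's processed signals), while Ptger4, another prostaglandin receptor gene, averaged -0.26. Sizes on these lists depended on the processing. Of the 21 named list probes 9 were over 1.5 times larger in the scanner's processed signals, and an offset of 16 made 5 so, while with median centring 4 were larger, 2 smaller and 1 of the other sign. These lists, like the Rgs genes, were chosen with earlier results of the same arrays known.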

How the data were processed

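Agilent Feature Extraction 7.5.1 read the spots, per the file headers. The deposited intensity columns hold mean spot brightness and local background. In the processed intensity columns, deposited beside them, background and spatial trend had been removed and the dyes normalized. Log2 ratios fill the authors' deposited value table. Each column equals the treated over untreated ratio of processed signals of the other array of its time point (100% of spots within 0.001). Scale and centring are thereby settled and direction rests on the labels' dyes. Signed so, the IL-1 targets Cxcl1, Nfkbia, Il6 and Icam1 (brighter probe) stood at 6.21, 3.02, 2.51 and 2.34 at 1 h, and exchanged scanner files would put them as far below the untreated level. Medians of its columns, replicate 1 then 2, were -0.026 and 0.0261 for 1 h, -0.0309 and 0.0311 for 2 h, then -0.0325 and 0.0283 for 4 h.

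Background correction of the mean signals used normexp (offset 50), followed by loess, in limma 3.58.1 (R 4.3.3), controls having weight 0. Outlier flags were left out and spots of a probe averaged. Of 41174 probes 30634 passed the filter and 57 lacked a value on some array. The array number limits the precision. Median signals were 121.8 to 137.7, against negative control medians of 68.4 to 104.4. Means of both orientations entered two-sided lmFit and eBayes tests for the mean response, which leaves 2 residual degrees of freedom, and for the slope on log2 time, which leaves 1, with Benjamini-Hochberg adjustment over 30577 probes. Testing against 0 ignores how untreated cultures vary, and whether 1 untreated extract served all arrays is not stated. Replicate numbers mark dye orientation in the labels, and deviations of same-numbered arrays correlated at 0.765 to 0.843. The script was tested on simulated data. RefSeq promoters matched 8 of the 9 members. Named were all members, up to 3 called genes per list and direction, 4 IL-1 targets or fewer as a check, and the 5 nearest patterns to a member at least 2-fold changed. Members and lists were chosen with earlier results of these data known.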

Additional observations from a re-analysis of the deposited data

Results flagged for a closer look

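The slopes of 2 probes differed from 0, so that the response differed between time points by the test of the slope. Rgs2 (A_51_P419768) had a slope of 0.33 per doubling of time, with ratios of -0.76, -0.38 and -0.097 at 1, 2 and 4 h. Rgs16 (A_51_P249286) had a slope of -0.29, with ratios of 1.47, 1.32 and 0.88. In the means of both orientations both converged towards the untreated level, from opposite sides. With treated RNA in Cy5 the Rgs2 ratio at 4 h was 0.16, above that level. Each slope call was lost under the settings given above. A shared untreated extract, which would cancel in the slope, is not stated. The part of the dye in the Rgs2 values was not tested beyond the single orientations given above, which had slopes in the same direction.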

How the results depend on the processing

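The 7 called Rgs probes kept their call of the mean response in 74 cases over the alternatives and lost it in 10. The 9 uncalled probes stayed uncalled in 102 and gained a call in the same direction in 5, and Rgs10 passed with the other sign at 0.098 without replicate 2 (-0.10 without replicate 1). The number of Rgs probes up was 5, where 10.5% of all probes rose, with 4 to 7 over the alternatives that keep probes apart. The 7 came without replicate 2, where 20.5% of all probes rose. The 4 came under settings where 3.03% to 14.8% of all probes rose. With the mean of a gene's probes 2 genes were up, where 10.2% of all genes rose. The number down was 2, where 11.4% of all probes fell. It was 1 with an offset of 16 (7.89% of all probes) and 1 without the 2 h sample (2.82%). With the scanner's processed signals (3.05%) it was 0 (limma; 4 at an unadjusted p under 0.05). It was 3 with median centring (24.4%), without replicate 1 (19.3%) and without the 1 h sample (8.72%). The single rising slope became 0 with an offset of 16, the processed signals, trended robust variance and gene means, and was 0 to 1 when a replicate was left out (limma; 1 at an unadjusted p under 0.05 in each). The single falling slope became 0 with an offset of 16, the processed signals and trended robust variance, and 0 without either replicate (limma; 1 to 3 at an unadjusted p under 0.05), and 2 with median centring. Over the whole array 0 slopes passed with an offset of 16, the processed signals and trended robust variance. Without a replicate 8 to 17 rising and 13 to 30 falling slopes passed there, against 60 and 74 as reported. With median centring 0 Rgs probes were 2-fold higher at 1 h and at 2 h, and without replicate 2 there was 1 at 4 h, against 0. On the G-protein lists 22 probes were up, with 11 for the processed signals (6.88%, against 3.38% of all probes), 8 without the 2 h sample and 33 to 37 without a replicate. Down were 10, with 5 for an offset of 16 (3.12%, against 7.89% of all probes), 2 for the processed signals (1.25%, against 3.05%), 30 for median centring, 3 without the 2 h sample and 19 to 29 without a replicate. The replicate block gave 17 down and changed no call of an Rgs probe. The causes were not tested. The offset holds down the ratios of dim probes, and 2 arrays a time limit the precision. Whether either lies behind a changed call was not tested.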
